A study of Homo sapiens with 2 samples.

Results

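The interleukin-1 (IL-1) family was followed here across an RNA sequencing comparison of MDA-MB-231 cells, an established human breast cancer line of the triple-negative kind. One group of cells carried a short hairpin RNA against the kinase gene CDK14 (CDK14-sh) and the other a scramble control hairpin. The labels give no dose, time or clone for either group, and both were the same line, with no more said of the cultures. Each group held 1 library. Reads summed over the gene rows numbered 15478156 under the CDK14 hairpin and 17217564 with the scramble hairpin. Without replicates every difference is one between these libraries only, reported with no test. The 9 genes IL1A, IL1B, IL1RN, IL18, IL33, IL1R1, IL1R2, IL1RAP and IL1RL1 were chosen by name as ligands, antagonist and receptors of the family, after the higher values of IL1A and IL1B in these same libraries were known. The ratios of those genes are therefore a description and support nothing beyond these libraries. Of the 9, 8 had a row among the 29452 gene rows of the deposited table. IL33, which encodes an alarmin of the family, was not analysed here.

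IL-1 alpha and IL-1 beta are inflammatory cytokines that bind the same receptor, IL1R1, which then recruits the accessory chain encoded by IL1RAP. The complex signals through the adaptor MYD88 and IRAK kinases to NF-kB and MAP kinases, whose targets include further cytokines and chemokines. IL-1 beta and IL-18 are made as precursors that caspase-1 cuts inside an inflammasome, whereas IL-1 alpha is active as a precursor and can be cut by calpain. IL1RN encodes a natural receptor antagonist, and IL1R2 encodes a decoy receptor that binds ligand without signalling.

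IL1A and IL1B lie next to each other on chromosome 2, and the regions upstream of their RefSeq starts are shown because these neighbours had the highest ratios of the family. The upstream region of IL1RAP, on another chromosome, is shown for contrast. Sequences are from RefSeq (GRCh38.p14), read 5′ to 3′ on the gene's strand, 250 bases ending just before the RefSeq start. The rows of the deposited table begin further upstream, by 97 bases for IL1A, 124 for IL1B and 34 for IL1RAP, so the last bases of each window lie inside the row. Capitals mark matches on either strand to any of 6 motifs. For the stress-responsive factor AP-1 the word searched was TGANTCA, and for C/EBP factors, which bind many cytokine genes, it was TTGCNNAA. The cyclic AMP response element (CRE) was searched as TGACGTCA. The core promoter word was TATAAA, the core word of ETS factors was AGGAAG, and the sixth was the kB consensus. RefSeq upstream windows were found for 8 of the 9 genes, 17 windows in all.
IL1A, chr2:112784494-112784743, minus strand: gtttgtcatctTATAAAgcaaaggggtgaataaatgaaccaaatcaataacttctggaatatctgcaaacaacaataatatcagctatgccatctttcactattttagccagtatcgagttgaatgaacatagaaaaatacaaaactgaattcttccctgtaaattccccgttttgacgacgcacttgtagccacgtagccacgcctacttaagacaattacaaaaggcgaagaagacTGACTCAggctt
IL1B, chr2:112836780-112837029, minus strand: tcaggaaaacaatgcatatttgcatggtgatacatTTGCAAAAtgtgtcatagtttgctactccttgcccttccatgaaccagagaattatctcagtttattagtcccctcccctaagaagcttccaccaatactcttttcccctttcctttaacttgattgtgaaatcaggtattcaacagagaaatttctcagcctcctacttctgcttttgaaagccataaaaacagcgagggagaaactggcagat
IL1RAP, chr3:190513835-190514084, plus strand: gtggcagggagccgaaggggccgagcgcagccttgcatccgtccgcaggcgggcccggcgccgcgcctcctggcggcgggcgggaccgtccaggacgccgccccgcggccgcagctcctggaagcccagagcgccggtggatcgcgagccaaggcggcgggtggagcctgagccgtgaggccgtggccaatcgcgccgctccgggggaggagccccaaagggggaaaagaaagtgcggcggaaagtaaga

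The 3 windows differed in base composition. GC content was 37.6% for IL1A, 40% for IL1B and 74.8% for IL1RAP, against a median of 58% over all windows of this length. The IL1A window held an AP-1 word starting 12 bases before the RefSeq start, within the span of the IL1A row, and AP-1 words occurred in 6.57% of the 35116 windows. It also held a TATA word 239 bases before the start, a word found in 10.7% of windows. The IL1B window held a C/EBP word 215 bases before the start, found in 9.05% of windows. No CRE, kB or ETS word lay in the IL1A or IL1B window shown, and the IL1RAP window held none of the 6. These words occurred in 1.65% (CRE), 9.96% (kB) and 28.7% (ETS) of windows. No matches overlapped in the windows shown. A second RefSeq start of IL1A lies further into the gene, and its window holds 2 AP-1 words, 105 and 55 bases before that start, the first being the word shown above. AP-1 words also lay in a window of IL1RN, 223 bases before its start, and in a window of IL1RL1, 191 bases before its start. TATA words lay nearer to a start in windows of IL1R2 (30 bases before), IL1RL1 (29) and IL1RN (32 and 30). A window of IL1R1 held TATA words 229 and 124 bases before its start. Each match is one of letters alone.

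The labels were checked against the targeted gene first. CDK14 stood at 0.548 RPKM (reads scaled to exon length and to the library's assigned reads) in the CDK14-sh library against 2.48 RPKM in the control, from 58 and 292 reads. The library labelled as the knockdown was thus the lower, by 4.53-fold. Its row shares exons with 3 other rows. The line's markers VIM, CD44, AXL, EGFR and CAV1 were all at 14.0 RPKM or more in both libraries. ESR1, PGR and CDH1, low in this line, had at most 8 reads, and GATA3 had 2.56 and 2.5 RPKM.

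IL1B, encoding IL-1 beta, was the most abundant member in both libraries. Its level was 46.4 RPKM under the CDK14 hairpin, from 2225 reads, against 7.94 RPKM with the scramble hairpin, from 423 reads. The CDK14-sh library was the higher by 5.85-fold, with a 95% interval of 5.27 to 6.51. Intervals here and below are exact binomial (Clopper-Pearson) intervals on the reads for ratios and exact Poisson intervals for levels. They cover counting error only, not the spread between cultures. By level, IL1B ranked 955 from the top of the CDK14-sh library and 5461 from the top of the control. Its row, on chromosome 2 from 112829751 to 112836903 on the minus strand (GRCh38), shared no exon with another row.

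IL1A, encoding IL-1 alpha, had 11.3 RPKM under the CDK14 hairpin, from 373 reads, against 2.13 RPKM with the scramble hairpin, from 78 reads. CDK14-sh was again the higher, by 5.32-fold (4.16 to 6.88). The IL1A row, at 112773915 to 112784590 on the same strand of chromosome 2, also shared no exon with another row. Both IL-1 genes kept a similar proportion to each other: IL1B stood 4.09 times above IL1A in CDK14-sh (3.67 to 4.58) and 3.72 times above it in the control (2.92 to 4.8). The fold of IL1B divided by the fold of IL1A was 1.10, with an interval of 0.832 to 1.44 that includes 1. Among 13299 genes that reached 30 reads and 1 RPKM in the higher library and had reads in both, IL1B ranked 1 and IL1A ranked 4 from the highest ratio with 0.1 RPKM added to each level, and 3 and 5 by plain fold. That place belongs to the choice of these genes.

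IL18, encoding the other caspase-1 substrate, went the other way. Its level was 3.52 RPKM in CDK14-sh, from 143 reads, against 6.17 RPKM in the control, from 279 reads. CDK14-sh was the lower library, by 1.75-fold, short of 2-fold, with an interval of 1.43 to 2.16 that runs across 2-fold. Rescaled so that length-corrected values have the same total in each library (TPM), IL18 was 1.95-fold lower (1.59 to 2.40). IL18 lies on chromosome 11 from 112143251 to 112164117, minus strand. In the control IL1B stood only 1.29 times above IL18 (1.10 to 1.502), and in CDK14-sh 13.2 times above it (11.2 to 15.8). IL18BP, which encodes the secreted protein that binds and blocks IL-18, had 5.08 RPKM in CDK14-sh and 4.39 RPKM in the control, 1.16-fold higher (0.991 to 1.35). The level of IL18BP was thus 1.44 times that of IL18 in CDK14-sh (1.19 to 1.77) and 0.712 times that of IL18 in the control (0.605 to 0.839). Exons of IL18BP overlap the row of NUMA1, so its reads may not all be its own.

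IL1RN, encoding the receptor antagonist, had 0 reads in both libraries. A count of 0 allows up to 3 reads, which in this row is 0.0595 RPKM for CDK14-sh and 0.0535 RPKM for the control. Against the level of 3 reads of IL1RN, IL1B stood 780 times higher in CDK14-sh and 148 times higher in the control, and IL1A 191 and 39.9 times. These ratios leave out counting error. The row lies on chromosome 2 from 113107214 to 113134016.

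**Figure D1:**
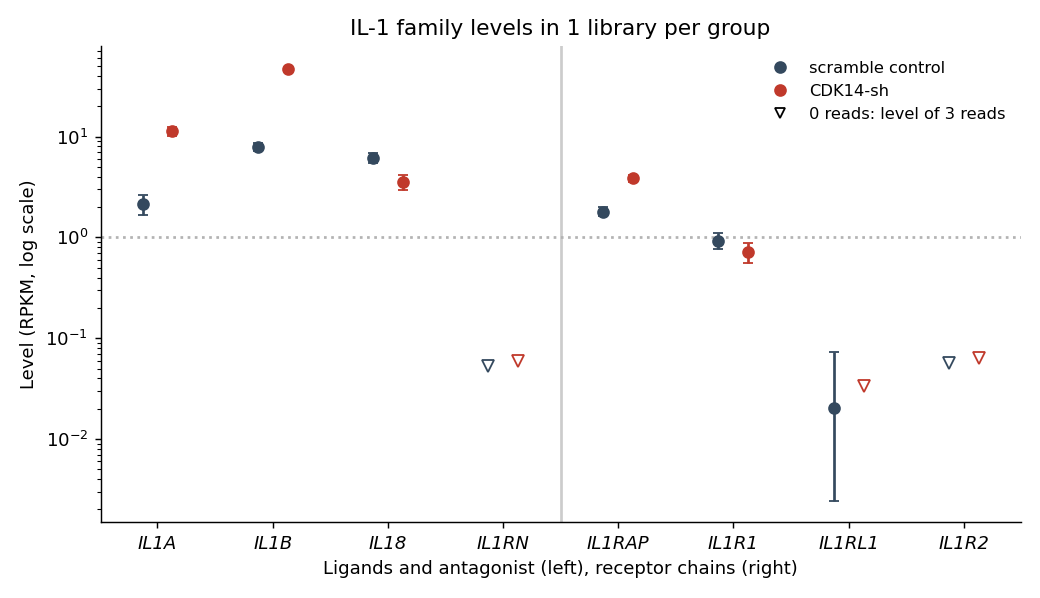
Level of each IL-1 family gene in RPKM on a log axis, with ligands and antagonist left of the vertical line and receptor chains right of it; dots are single libraries, bars 95% Poisson counting intervals, open triangles the level of 3 reads where a library had 0, and the dotted line 1 RPKM. IL1A, IL1B and IL1RAP stand higher in CDK14-sh, IL18 lower, and IL1RN and IL1R2 are at 0 in both libraries.

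Of the receptor genes, IL1RAP was the most abundant and the only one above 1 RPKM in either library. IL1RAP, the accessory chain shared by the IL-1, IL-33 and IL-36 receptors, had 3.85 RPKM in CDK14-sh, from 688 reads, against 1.80 RPKM in the control, from 358 reads. CDK14-sh was the higher library, by 2.14-fold (1.88 to 2.44), so the interval runs across 2-fold. In TPM its log2 ratio was 0.92, and with 1 RPKM added to each level 0.79, both under 2-fold. The IL1RAP row, on chromosome 3 from 190514051 to 190659750, covers membrane and soluble forms together, which the table does not separate.

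IL1R1, the signalling receptor for both IL-1 ligands, had 0.711 RPKM in CDK14-sh, from 78 reads, against 0.927 RPKM in the control, from 113 reads. The control was the higher, by 1.302-fold with an interval of 0.967 to 1.76 that includes 1. In TPM the control was the higher by 1.45-fold (1.07 to 1.96), an interval that leaves out 1, and IL1R1 reached 1.17 and 1.70 TPM. Whether IL1R1 differed beyond counting error thus depended on the scaling. IL1R1 exons overlap those of AC007271.3 on the opposite strand. The level of IL1RAP was 5.41 times that of IL1R1 in CDK14-sh (4.27 to 6.92) and 1.94 times in the control (1.57 to 2.42). The fold of IL1RAP divided by that of IL1R1 was 2.78 (2.01 to 3.87), so these partner chains did not shift together between these libraries.

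The decoy receptor gene IL1R2 had 0 reads in both libraries, where 3 reads would be 0.0631 RPKM in CDK14-sh and 0.0567 RPKM in the control. IL1RL1, encoding the IL-33 receptor ST2, had 0 reads under the CDK14 hairpin and 2 with the scramble hairpin, all below the level of 3 reads. Neither gene was given a fold. The IL1RL1 row shares exons with IL18R1, encoding the ligand-binding chain of the IL-18 receptor, which had 24 reads (0.356 RPKM) against 11 in the control (0.147 RPKM). That is 2.43-fold higher (1.15 to 5.49) at a level under the filter of 1 RPKM.

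The order of the levels differed between the libraries. In the control it ran from IL1B (7.20 to 8.73 RPKM) through IL18 (5.46 to 6.93) to IL1A (1.69 to 2.66) and IL1RAP (1.62 to 1.995), whose intervals overlap, and then IL1R1 (0.764 to 1.11). In CDK14-sh it ran from IL1B (44.5 to 48.4) and IL1A (10.2 to 12.6) to IL1RAP (3.56 to 4.14) and IL18 (2.96 to 4.14), whose intervals overlap, and IL1R1 (0.562 to 0.888). IL1A thus stood below IL18 in the control and above it in CDK14-sh. The 8 genes together took 3507 reads under the CDK14 hairpin against 1253, and IL1A and IL1B made up 74.1% and 40.0% of these.

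For counts across genes, a gene was taken as higher or lower when the ratio of levels, each raised by 0.1 RPKM, reached 2-fold and the higher library had at least 1 RPKM. In that reading 4 of the 8 members passed the level filter, 3 of them were higher (IL1A, IL1B and IL1RAP), 0 were lower and 1 (IL18) lay within 2-fold. Over all 14878 genes passing the filter, 3.21% were higher (478 genes) and 3.47% lower (516 genes), with a median log2 ratio of 0.04. The members were chosen with the ratios known, so their count is not to be read against that share. TPM moves the median of all genes by -0.15 log2 and gives 609 higher and 1128 lower genes, so that 64.9% of these are lower, against 51.9% in RPKM. The filter of 1 and the constant of 0.1 were then in TPM, so the set of genes that entered differed as well as the scale. IL1A and IL1B stayed above 2-fold in TPM, with log2 ratios of 2.23 and 2.39.

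**Figure D2:**
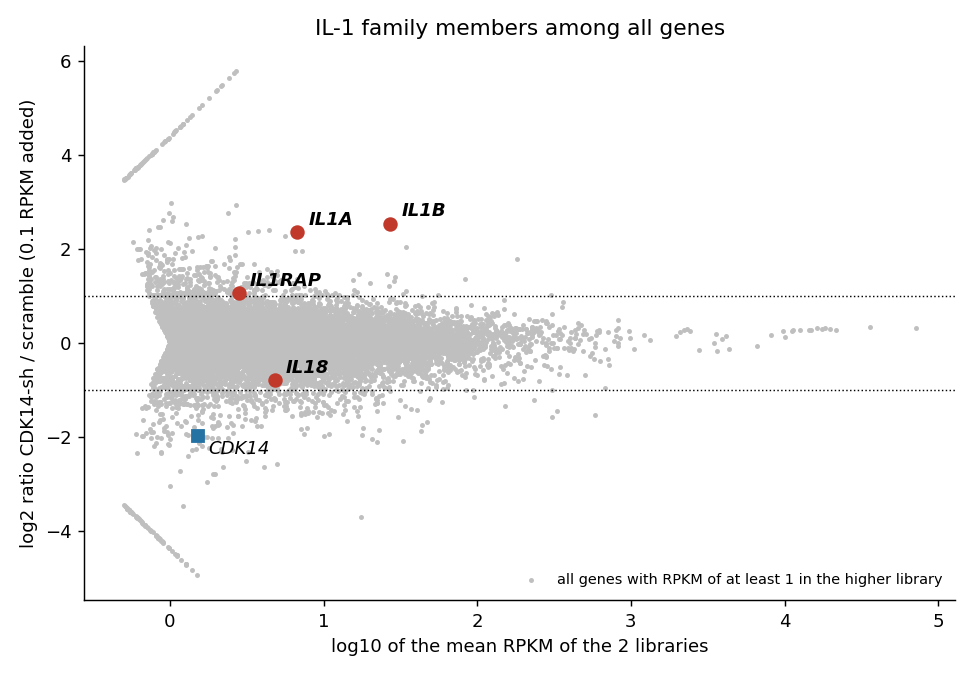
Log2 ratio of CDK14-sh to scramble control (0.1 RPKM added) against the log10 mean RPKM of the 2 libraries, for the 14878 genes that reach 1 RPKM in the higher library (grey), with the 4 IL-1 family members that pass in red, CDK14 as a blue square and 2-fold as dotted lines. IL1B and IL1A lie near the upper edge at their levels, IL1RAP just above 2-fold and IL18 inside the lower line; the straight rays of grey points are genes at 0 in a library.

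The genes beside IL1A and IL1B did not share their ratios. CKAP2L, a spindle-associated gene next to IL1A, had 16.2 RPKM in CDK14-sh and 20.6 RPKM in the control, 1.27-fold lower (1.18 to 1.37). NT5DC4, which overlaps CKAP2L, was 1.46-fold lower (1.18 to 1.80), and SLC20A1, encoding a phosphate transporter, 1.16-fold lower (1.13 to 1.19). On the IL1B side, RP11-67L14.1, AC079753.4 and the family gene IL37 had at most 2 reads in a library. At the receptor locus, from IL1R2 to IL1RL1 on the plus strand of chromosome 2, the nearest measured gene upstream was MAP4K4, a kinase gene, with 26.8 and 24.5 RPKM. Further out, CREG2 and SNORD89 had 0 reads under the CDK14 hairpin and 1 and 2 with the scramble hairpin. MAP4K4 was 1.09-fold higher in CDK14-sh (1.05 to 1.14). Downstream, SLC9A2 and MFSD9 had log2 ratios of -0.37 and -0.30 and TMEM182 one of 0.61, with 18 to 110 reads in a library.

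**Figure D3:**
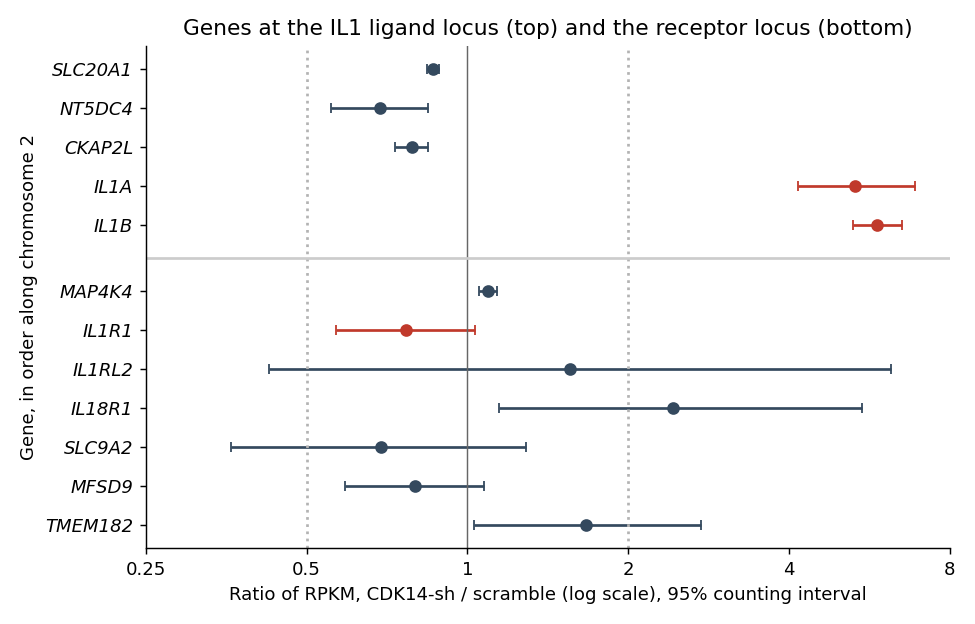
Ratio of RPKM in CDK14-sh to scramble control on a log axis, with 95% counting intervals, for genes with reads in both libraries at the IL1A-IL1B locus (top) and the receptor locus (bottom), members in red and 2-fold dotted. AC007271.3, at the receptor locus with 6 reads in each library, is not drawn. IL1A and IL1B stand at 5.32 and 5.85, while their neighbours SLC20A1, NT5DC4 and CKAP2L lie below 1.

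IL1A and IL1B messages carry AU-rich words of ATTTA in their 3′ untranslated regions (UTRs), the kind of element by which decay factors such as tristetraprolin (ZFP36) recognise cytokine mRNA. In GENCODE v29 the longest basic 3′ UTR of IL1B has 610 bases with 6 ATTTA words, or 9.84 per kb, a density reached by 1.08% of the 10361 genes that passed the level filter and have such a UTR. The IL1A 3′ UTR has 1152 bases with 5 words, 4.34 per kb, reached by 13% of genes. The densest 30 bases of each are shown for these AU-rich stretches, with ATTTA in capitals.
IL1B, 30 bases from position 329 after the stop codon: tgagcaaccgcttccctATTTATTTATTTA
IL1A, 30 bases from position 614 after the stop codon: tATTTAtatatgtATTTAtaaatatATTTA

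IL18 has 0 ATTTA words in 345 bases and IL1RN 0 in 1145 bases, while 74.1% of these genes have at least 1. IL1R2, with 0 reads in both libraries, has 1 in 154 bases, 6.49 per kb, a density reached by 4.1% of genes. IL1RAP has 4 in 3143 bases, 1.27 per kb, under the median of 1.76 per kb over these genes. IL1R1 has 8 in 3115 bases, 2.57 per kb, which 35.2% of genes reach. The longer word TTATTTATT occurs 2 times in IL1B and 0 times in IL1A, IL18, IL1RAP and IL1R1, and 9.54% of genes have at least 1. Whether these words bear on the ratios was not tested.

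All 13 of a list of AU-rich and stem-loop binding factors, which decay or stabilise such messages, passed the level filter. Of these, 0 were past 2-fold in either direction, near the 3.21% higher and 3.47% lower of all genes, and the median log2 ratio was -0.08 (-0.23 in TPM). ZFP36 had 6.81 RPKM in CDK14-sh and 6.67 RPKM in the control. Its relative ZFP36L1 had 24.1 and 38.5 RPKM, 1.60-fold lower (1.51 to 1.69), and ZFP36L2 was 1.25-fold lower (1.10 to 1.42). RC3H2, encoding roquin-2, was 1.46-fold lower (1.37 to 1.55), and ZC3H12A, encoding the endonuclease regnase-1, 1.21-fold higher (1.04 to 1.41). ZC3H12C was 1.09-fold higher and ELAVL1, encoding the stabilising factor HuR, 1.09-fold lower. ELAVL1 exons overlap another row.

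Among the 13 other genes of the family, 8 had a row and 1, IL18BP, passed the level filter. IL36G, IL37 and IL1RAPL2 each had 0 reads under the CDK14 hairpin and 1 with the scramble hairpin. SIGIRR, encoding an inhibitory receptor of the family, had 0.370 and 0.399 RPKM, and IL1RL2, the IL-36 receptor, 7 and 5 reads. IL1RAPL1, a relative of the accessory chain known from neurons, had 0.810 RPKM in CDK14-sh and 0.855 RPKM in the control. IL36A, IL36B, IL36RN, IL1F10 and IL18RAP were not analysed here.

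In the list of inflammasome and processing genes, 18 of 19 had a row and 15 passed the level filter. Of these, 1 was higher, 1 lower and 13 within 2-fold, with a median log2 ratio of 0.10 (-0.05 in TPM). Those counts are close to the shares over all genes, 3.21% higher and 3.47% lower. AIM2, a sensor of cytosolic DNA, had 4.25 RPKM in CDK14-sh and 1.82 RPKM in the control and was 2.33-fold higher (1.71 to 3.20). NEK7, the kinase that binds NLRP3 during inflammasome assembly, had 9.75 and 22.01 RPKM and was 2.26-fold lower (2.08 to 2.45). NLRP3 itself stood at 3.98 RPKM in both libraries. CASP1, encoding the caspase that cuts IL-1 beta and IL-18, had 3.60 and 2.28 RPKM, 1.58-fold higher (1.27 to 1.97), and the related CASP4 was 1.56-fold higher (1.41 to 1.73). NLRP1 was 1.498-fold lower (1.29 to 1.74), and CAPN2, a calpain subunit, 1.62-fold lower (1.57 to 1.68) at 38.2 and 61.9 RPKM. PYCARD, encoding the adaptor ASC that joins sensors to caspase-1, had only 11 reads under the CDK14 hairpin against 26. Its level, 0.428 and 0.909 RPKM, was under the filter. In TPM it passed the filter and joined NEK7 as lower. PYCARD exons overlap PYCARD-AS1.

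All 24 genes of the IL-1 receptor signalling list passed the level filter and 0 of 24 passed 2-fold, with a median log2 ratio of 0.08 (-0.07 in TPM). With 3.21% of all genes higher and 3.47% lower, a count of 0 is near the background. NFKB1, encoding the p105 and p50 NF-kB proteins, had 11.0 RPKM in CDK14-sh and 6.44 RPKM in the control, 1.71-fold higher (1.55 to 1.89), or 1.54-fold in TPM. IRAK1, the kinase downstream of MYD88, was 1.48-fold higher (1.39 to 1.58). On the other side were PELI2, an E3 ligase gene of the IRAK complexes, 1.71-fold lower (1.31 to 2.23), and MAPK14, encoding p38 alpha, 1.58-fold lower (1.45 to 1.71). In TPM these were 1.90-fold and 1.75-fold lower. TAB2, an adaptor of the kinase TAK1, was 1.47-fold lower (1.36 to 1.58), and IRAK3, an inhibitory member of its family, 1.42-fold lower (1.20 to 1.69). Exons of PELI2 and IRAK3 overlap those of other rows. MYD88 was 1.25-fold higher, and RELA and TRAF6 differed by 1.01-fold and 1.00-fold.

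Known IL-1 target genes past 2-fold were all in the higher direction. Of 32 listed, 29 had a row and 24 passed the level filter, of which 5 were higher, 0 lower and 19 within 2-fold, and the median log2 ratio was 0.30 (0.15 in TPM, where 4 of 25 were higher), against 3.21% higher, 3.47% lower and a median of 0.04 over all genes. CSF3, the granulocyte colony-stimulating factor gene, had 55.1 RPKM in CDK14-sh and 13.3 RPKM in the control, 4.14-fold higher (3.75 to 4.58). The chemokine gene CXCL3 had 25.01 and 9.06 RPKM, 2.76-fold higher (2.43 to 3.14). LIF was 2.48-fold higher (2.31 to 2.66) and IL6 2.31-fold higher (1.88 to 2.85), and both share exons with noncoding rows. CXCL1 had 406 RPKM in CDK14-sh and 202 RPKM in the control, 2.01-fold higher (1.94 to 2.08), and was under 2-fold in TPM. CXCL8, encoding interleukin-8, had 467 and 258 RPKM, 1.81-fold higher (1.77 to 1.86). CXCL1, CXCL2 and CXCL3 are close in sequence, so reads may be split among them. PTGS2, encoding the prostaglandin enzyme COX-2, was 1.83-fold higher (1.52 to 2.21), and CSF2, another colony-stimulating factor gene, 1.62-fold higher (1.35 to 1.94). In the other direction SAA2, a serum amyloid gene with a near-identical copy in SAA1, was 1.61-fold lower (1.38 to 1.89). C3, the complement gene, was 1.47-fold lower (1.41 to 1.54), and IL11 1.26-fold lower (1.16 to 1.37). Of the 24, 16 had a log2 ratio above 0 and 8 below, against 8135 and 6743 of all genes passing the filter. Nearer to the control, NFKBIA was 1.24-fold higher, ICAM1 1.24-fold higher, and BIRC3 1.05-fold lower. Some of these genes were known to be higher before the list was written, so the list gives no separate support.

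**Figure D4:**
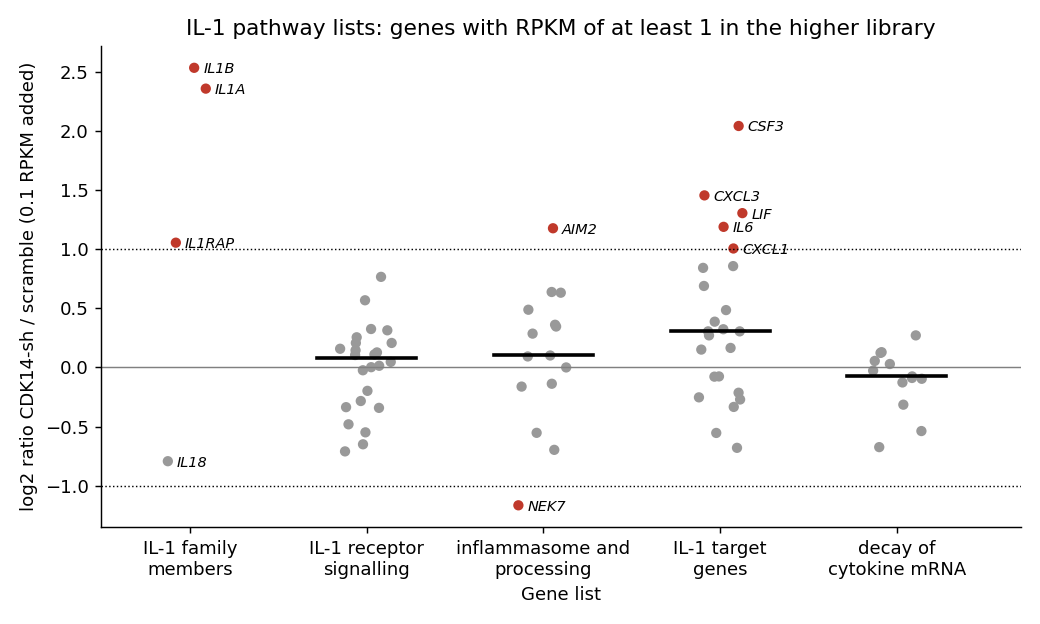
Log2 ratio of CDK14-sh to scramble control (0.1 RPKM added) for genes that reach 1 RPKM in the higher library, by list; each dot is a gene, red at 2-fold or beyond, black bars are list medians (none is drawn for the 4 members) and dotted lines mark 2-fold. Target genes have 5 red dots, all above, the receptor signalling and decay lists have none, and AIM2 and NEK7 lie on opposite sides.

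With 2 libraries, likeness of pattern is likeness of ratio, taken here with 0.1 RPKM added. The 3 genes outside the family that reached 30 reads in the higher library and whose log2 ratio lay nearest to the mean of IL1A and IL1B (2.45) were AC083843.4, BIK and CCR1, within 0.24. They had far fewer reads, 50 against 7 for AC083843.4, 33 against 5 for BIK, a pro-apoptotic gene, and 36 against 5 for CCR1, a chemokine receptor gene that stayed under 1 RPKM. Their plain folds were higher than those of IL1A and IL1B, at 7.95 (3.58 to 20.8), 7.34 (2.85 to 24.1) and 8.01 (3.13 to 26.1), so the nearness of the ratios rests on that constant. Each of these intervals includes the folds of IL1A and IL1B, 5.32 and 5.85.

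Leukocytes also make IL-1, and their markers were read beside these values. Of 12 leukocyte markers 9 had a row, with summed levels of 152 RPKM in CDK14-sh and 155 RPKM in the control. CD68 and HLA-DRA, which passed 1 RPKM, made up nearly all of that sum. CD14 had 22 reads in each library. Other defining markers were near 0: PTPRC, the CD45 gene, had 3 reads in each library, CSF1R 8 and 14, CD163 1 and 2, and ITGAM and AIF1 0 in both. Fibroblast markers summed to 2.05 and 1.69 RPKM, mostly COL1A1 (1.99 and 1.65 RPKM), with DCN and LUM at 0 in both libraries. Endothelial markers summed to 1.65 and 1.86 RPKM, mostly KDR (1.42 RPKM in both), with VWF at 0. PECAM1, from 20 and 52 reads, was 2.34-fold lower in CDK14-sh (1.37 to 4.13). Of 6 keratinocyte markers 5 had a row, summing to 12.7 and 8.94 RPKM, mostly KRT10, whose exons overlap the row of TMEM99. KRT1 was at 0, KRT5 had 1 read in CDK14-sh and 0 in the control, and KRT14 2 and 1. KRT10 was 1.40-fold higher in CDK14-sh (1.20 to 1.62), and TP63, at 0.329 and 0.140 RPKM from 38 and 18 reads, was 2.35-fold higher (1.31 to 4.37). Their part in the IL-1 values was not tested. In bulk RNA, more cells that express a gene and more RNA per cell cannot be told apart.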

How the data were processed

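The 2 libraries, 1 CDK14-sh and 1 scramble control, were made from total RNA with a stranded mRNA kit, per the labels' protocols. The authors deposited RPKM values per gene row, with exon positions and summed exon length, per the file headers. Tools listed in the submitters' processing notes are featureCounts, Bowtie 0.12.2 and Subread 1.5.1, and the listed builds are mm8 and GRCh38, with no roles. How strand, overlaps and multiple hits were handled was not given in the sources used here. All 8 member rows had the start, end and strand of the gene in GENCODE v29 (GRCh38).

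Multiplied by length, 100% of the nonzero RPKM values fell within 0.01 of a whole read count, given the worth of 1 read in that library. These recovered reads gave 95% counting intervals. A fixed level of 3 reads, under the upper end of the Poisson interval, was used for a count of 0. PCR copies are not independent molecules. Log2 ratios added 0.1 RPKM, which understates the ratio of low genes, and counts used genes that reached 1 RPKM in the higher library. Interval and threshold code was tested on simulated data. Members and lists were chosen with earlier results of these data known. By rule, the text names every member, CDK14, the nearest rows at both loci, the 3 genes nearest in ratio and up to 6 genes per pathway list with the largest ratios; other list genes were added after their values were seen, as were the motif and ATTTA searches. GSDME was matched to an older symbol. Alternatives changed the added constant, level filter, scaling and threshold. Python 3.11.15, numpy 2.4.6, pandas 2.3.3 and scipy 1.17.1 were used.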

Additional observations from a re-analysis of the deposited data

How the results depend on the processing

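No paired analysis was possible because there was 1 library on each side, and for the same reason no library could be left out. Of 9 alternatives, 1 (at least 30 reads in the higher library) was chosen after seeing the data, as was ranking by plain fold. Members higher by 2-fold numbered 3, or 2 with 1 RPKM added, a filter of 5 RPKM or TPM, where IL1RAP dropped out; IL1A and IL1B passed in all 9. Members lower numbered 0, and 1 (IL18) at 1.5-fold. Of 25 ratios of members in alternatives, 22 stayed within their counting interval. The others were IL1A (1.98) and IL1RAP (0.79) with 1 RPKM added and IL1B in TPM (2.39), and 0 of those called changed sign. Over all genes, 478 were higher and 516 lower. These were 176 and 259 with 1 RPKM added, 2173 and 2043 with no level filter, 83 and 177 at 5 RPKM, 1355 and 1421 at 1.5-fold and 166 and 290 with at least 30 reads, and TPM gave 1128 lower. The filters change which genes enter. TPM changes the scale between libraries and, with filter and constant then in TPM, also which genes enter. At 0 to 2 reads per library, IL1RN, IL1R2 and IL1RL1 could not be compared at this depth.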
